A study of Mus musculus with 7 samples.

Results

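The small leucine-rich proteoglycans are secreted matrix proteins with a core of leucine-rich repeats. The 5017 genes analysed, called all genes below, lie mostly on chromosomes 1, 10, 11, 12 and 13 (4918 genes). Listed genes outside this set count as not measured. Of the 5017, 10 were examined here: Fmod, Lum, Kera, Prelp, Omd, Dcn, Aspn, Epyc, Optc and Ogn. They were chosen by name for their part in the connective tissue of the eye, with earlier results of these data known. Shares of members set against all genes below are therefore descriptions and no independent test. All 10 were found, with 64 probe sets that the platform annotation gives to a single gene. The study measured RNA of mouse retinal pigment epithelium (RPE), the pigmented layer behind the photoreceptors, dissected at postnatal day 5, on 7 Affymetrix arrays. There were 3 arrays of Dicer1-deficient RPE (Dicer1loxP/loxP;Dct-Cre), set against 4 of control RPE. The Dicer1 protein cuts microRNA precursors to their mature length, and Dct-Cre, driven by the promoter of a melanin enzyme, is active in pigment cells. The pups of both groups came from a cross of Dicer1 flox/+ Dct cre with Dicer1 flox/flox mice, and the labels give no genotype for the controls. The labels do not tell whether each array had its own animal, and the p-values below measure only how far these arrays scatter, which can be technical.

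These proteins bind collagen fibrils and set their diameter and spacing, and several also bind growth factors of the TGF-beta family. Their core proteins carry keratan sulfate, chondroitin or dermatan sulfate chains, or sulfated tyrosines. In the eye they are best known from stroma: lumican, keratocan, decorin and mimecan from the cornea, fibromodulin and lumican from the sclera, and opticin from the vitreous. Fibroblast-like cells are the usual source of most of them. None is a classical marker of RPE cells.

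Signals are log2 values, and a gene's level is the mean of its probe sets, so that levels of different genes cannot be set against each other. The median of all probe sets was 6.22 and the lower quartile 4.63, and a signal in that region cannot be told from background here. Control 4 stood apart from the rest, with a median of 6.05 against 6.22 to 6.26 in the other arrays and correlations of 0.942 to 0.951 with them across all probe sets. Results that rest on it are therefore given with and without it. Dicer1 itself read 8.21 to 8.26 in Dicer1-deficient and 8.10 to 8.38 in control arrays on the mean of its 28 probe sets, and the floxed exons are not named in the labels. Pmel, a melanosome gene picked after its values were seen, and Kcnj13, a potassium channel gene of the RPE, read 11.05 to 11.17 and 9.67 to 10.04 in Dicer1-deficient arrays and 11.24 to 11.37 and 10.72 to 11.18 in control arrays, so the labelled tissue was present in all 7.

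All 10 proteoglycan genes had lower mean signals in Dicer1-deficient than in control RPE, and 3 of them fell by the test: Fmod (1.76-fold lower), Epyc (1.51-fold lower) and Omd (1.49-fold lower). The other 7 had log2 fold changes between -0.32 and -0.10. None rose. Here 3 of 10 were called lower (limma on all 7 arrays, Benjamini-Hochberg adjusted p under 0.05), against 2.83% of all genes, where 3.03% were called higher and 5.86% in either direction. A negative value was found in 54.4% of all genes. Their median log2 fold change was -0.30, where that of all genes was -0.01. Without control 4 the test called 5 members lower, Ogn and Aspn being added, in a fit that called 10.3% of all genes lower and 6.74% higher. In a dissected tissue, fewer cells of a type and less RNA per cell cannot be told apart.

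The promoters of the 5 genes called with or without control 4 are shown, Ogn and Aspn being called only without it. Of these genes, 3 (Aspn, Omd and Ogn) lie next to each other on chromosome 13. RefSeq's table (GRCm38.p6) matched 8 of the 10 members, with Dcn and Lum unmatched. Each window is the 250 bases before the annotated start, on the + strand, and the first of the 2 Epyc windows is printed. Capitals mark TATAAA (the TATA box) and CANNTG (the E-box, a core bound by bHLH factors), searched on both strands, with the TATA matches overlapping each other at one place in Ogn.
Fmod, chr1:134037004-134037253: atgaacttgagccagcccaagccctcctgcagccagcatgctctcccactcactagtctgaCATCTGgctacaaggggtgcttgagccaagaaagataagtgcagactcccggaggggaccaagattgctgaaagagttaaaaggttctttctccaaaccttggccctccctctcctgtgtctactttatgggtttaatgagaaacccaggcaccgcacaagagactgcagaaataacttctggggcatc
Epyc, chr10:97643818-97644067: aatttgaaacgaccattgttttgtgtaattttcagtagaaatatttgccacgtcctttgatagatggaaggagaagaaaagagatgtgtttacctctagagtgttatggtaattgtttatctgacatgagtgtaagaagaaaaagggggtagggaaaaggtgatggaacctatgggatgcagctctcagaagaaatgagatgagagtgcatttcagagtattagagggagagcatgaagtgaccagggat
Omd, chr13:49582212-49582461: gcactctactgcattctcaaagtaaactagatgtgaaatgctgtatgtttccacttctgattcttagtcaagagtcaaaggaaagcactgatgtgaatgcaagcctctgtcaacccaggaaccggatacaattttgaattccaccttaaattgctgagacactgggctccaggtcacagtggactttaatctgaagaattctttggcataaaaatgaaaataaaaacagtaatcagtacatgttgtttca
Ogn, chr13:49607765-49608014: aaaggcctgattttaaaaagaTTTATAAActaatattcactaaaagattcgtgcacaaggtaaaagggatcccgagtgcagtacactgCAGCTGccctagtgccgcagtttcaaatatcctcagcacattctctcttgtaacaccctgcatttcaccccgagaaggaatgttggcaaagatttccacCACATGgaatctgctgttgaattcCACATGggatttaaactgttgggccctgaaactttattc
Aspn, chr13:49544193-49544442: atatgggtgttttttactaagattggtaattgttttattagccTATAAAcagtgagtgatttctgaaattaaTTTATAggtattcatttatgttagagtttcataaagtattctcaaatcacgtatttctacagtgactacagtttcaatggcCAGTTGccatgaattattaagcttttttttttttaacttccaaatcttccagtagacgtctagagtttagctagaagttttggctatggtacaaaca
The windows share no layout. Ogn and Aspn held TATAAA, which 12.4% of all 32851 windows of this length hold, and the other 3 printed windows did not. An E-box stood once in Fmod and in Aspn and 3 times in Ogn, where 66.2% of all windows hold at least 1, and none stood in the printed windows of Epyc and Omd. No window of a matched member held TGANTCA, the AP-1 site, which 6.75% of all windows hold, or GGGCGG, the GC box, which 32.7% hold. CAGAC, a SMAD-binding element, stood in 3 of the 9 member windows (Fmod, Prelp and Optc), and 42.2% of all windows hold it. The GC content of the member windows ran from 30.0% to 56.8%, and the median of all windows was 52.4%. These matches are descriptions of letters and not of bound sites.

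Fmod showed the largest difference of the 10. It encodes fibromodulin, a keratan sulfate proteoglycan with sulfated tyrosines that binds collagen and is abundant in sclera and tendon. It read 9.66, 10.39 and 10.43 in Dicer1-deficient RPE, against 10.91, 11.004, 11.02 and 10.97 in control RPE. The groups did not overlap, the 4 controls lay within a narrow band, and Dicer1-deficient array 1 was well below both others. The means were 10.16 ± 0.43 (SD, n = 3) in Dicer1-deficient and 10.98 ± 0.05 (SD, n = 4) in control arrays. The log2 fold change was -0.82 (95% interval -1.20 to -0.44, limma adjusted p = 0.024). Each of its 3 probe sets was lower in every Dicer1-deficient array than in every control, with log2 fold changes of -1.06, -0.79 and -0.60. Its limma adjusted p was 0.0502, 0.0708 and 0.0644 without controls 1, 2 and 3, and over all alternatives of the fit it ran from 0.0041 to 0.124, the highest being that at its brightest probe set (-0.60).

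Lum and Kera, the corneal keratan sulfate proteoglycans lumican and keratocan, did not pass. Lum read 11.02, 11.06 and 11.25 in Dicer1-deficient arrays and 11.29, 11.32, 11.32 and 10.97 in controls. Control 4 was the lowest of all 7, below every Dicer1-deficient array, and the other 3 controls were above them all. The log2 fold change was -0.12 (95% interval -0.36 to 0.13), and without control 4 it was -0.20 (-0.36 to -0.04, limma adjusted p = 0.0931). Over the alternatives, the limma adjusted p of Lum ran from 0.0931 to 0.988.

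Kera is needed for the ordered collagen of the corneal stroma. It read 9.73, 10.04 and 10.08 in Dicer1-deficient and 10.38, 10.23, 10.05 and 10.30 in control arrays. The groups overlapped only at control 3, which lay just below the highest Dicer1-deficient array. Its log2 fold change was -0.29 (95% interval -0.55 to -0.03, limma adjusted p = 0.232), and all 3 of its probe sets had negative values, from -0.39 to -0.20.

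Prelp encodes a proteoglycan-like protein with a basic amino terminus that binds heparan sulfate and links basement membranes to collagen. It read 7.77, 8.004 and 8.09 in Dicer1-deficient and 8.10, 8.28, 8.26 and 8.49 in control arrays. The groups touched without overlapping, with control 4 the highest. The log2 fold change was -0.32 (95% interval -0.58 to -0.07, limma adjusted p = 0.164). Without control 4 it was -0.25 (95% interval -0.46 to -0.04, limma adjusted p = 0.101). Its probe sets split in pairs. Probe sets 10357872 and 10357873 had values of -0.68 and -0.50 with no overlap between the groups, while 10357871 and 10357874 had -0.04 and -0.07. Signals of 10357871 were 5.24 to 5.71 over all arrays, in the region that cannot be told from background.

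Omd encodes osteomodulin, a keratan sulfate proteoglycan best known from mineralized tissue. It read 5.99, 6.14 and 6.39 in Dicer1-deficient RPE, against 6.57, 7.03, 6.60 and 6.80 in control RPE. All Dicer1-deficient arrays were below all controls, with control 2 the highest. The means were 6.18 ± 0.20 (SD, n = 3) in Dicer1-deficient and 6.75 ± 0.21 (SD, n = 4) in control arrays, a log2 fold change of -0.57 (95% interval -0.88 to -0.26, limma adjusted p = 0.042). The Dicer1-deficient mean was slightly under the probe set median of 6.22, where background may hide part of a difference. Omd passed limma without control 4 (adjusted p = 0.0332) and did not pass with any other array left out, with adjusted p from 0.0507 to 0.183 there and from 0.0157 to 0.199 over all alternatives. At its brightest probe set, 10405060, the difference was larger, -0.92 on the log2 scale, with limma adjusted p = 0.0587 in a fit of each gene's brightest probe set. In that fit 1 member, Epyc, was called lower, and 0.917% of all genes were.

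**Figure D1:**
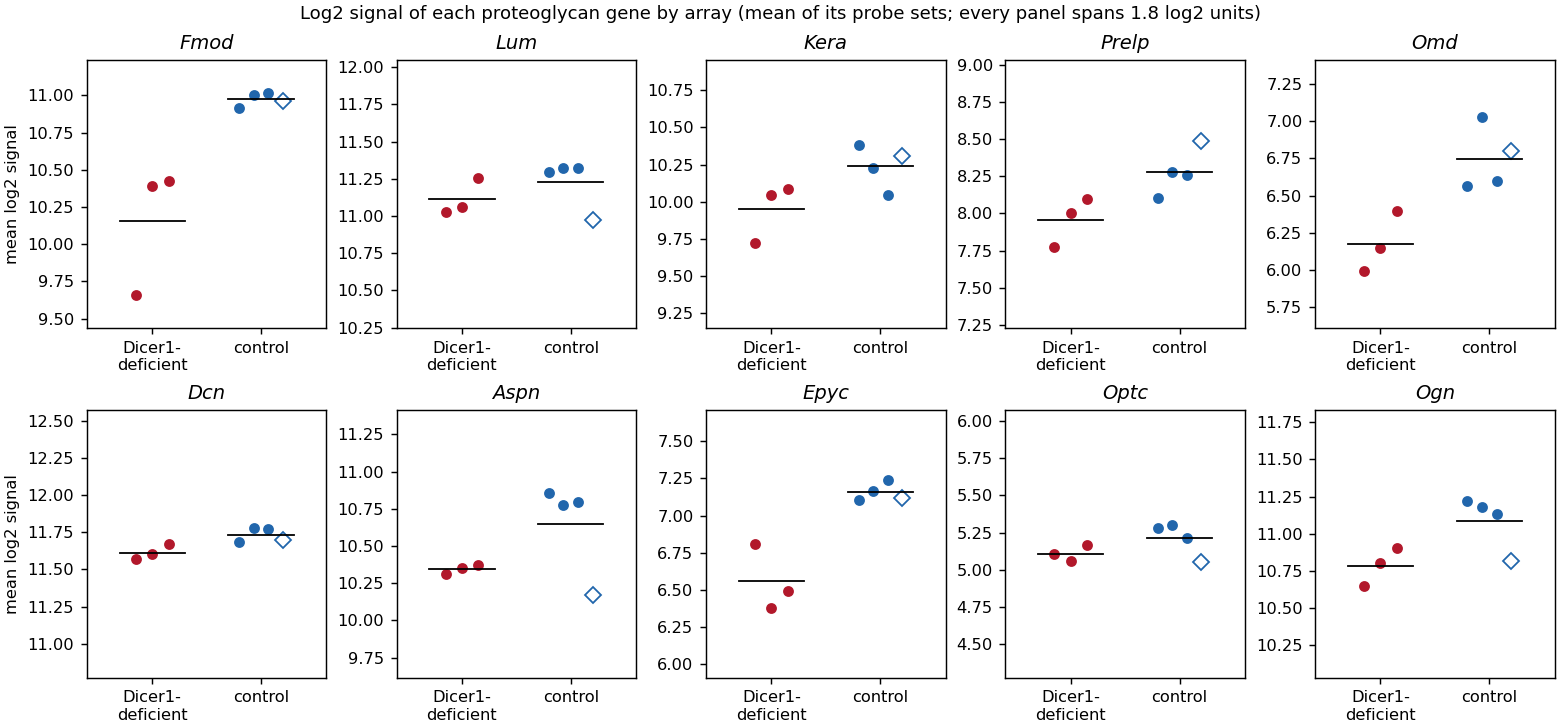
Mean log2 signal of each of the 10 genes in each array, with Dicer1-deficient arrays (red, n = 3) left and control arrays (blue, n = 4, control 4 as an open diamond) right, and a line at each group mean. Fmod, Epyc, Omd, Prelp and Dcn show no overlap between the groups, and control 4 lies below the other controls in Lum, Aspn, Ogn and Optc.

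Dcn encodes decorin, a collagen-binding proteoglycan of nearly all connective tissue that also binds TGF-beta. It read 11.57, 11.60 and 11.67 in Dicer1-deficient arrays and 11.68, 11.78, 11.77 and 11.70 in controls. The groups did not overlap, yet they lay close together. The log2 fold change was -0.12 (95% interval -0.29 to 0.05, limma adjusted p = 0.520). For the mean array signal, the interval excludes a fall as large as that of Fmod, Epyc or Omd at their mean values. The brightest Dcn probe set, 10365982, read 12.61 to 12.89, where the highest signal of all was 13.5. Whether signals that high follow RNA in full was not tested. Of the 8 Dcn probe sets 7 had negative values, from -0.30 upward. The remaining 1, 10365975, was near the median of all probe sets in every array.

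Aspn encodes asporin, a relative of decorin with an aspartate-rich stretch that binds collagen and TGF-beta. It read 10.31, 10.35 and 10.37 in Dicer1-deficient arrays and 10.86, 10.77, 10.79 and 10.17 in controls. The Dicer1-deficient arrays were nearly equal and lay between control 4 and the other 3 controls. On all 7 arrays the log2 fold change was -0.31 (95% interval -0.66 to 0.04, limma adjusted p = 0.374). Without control 4 it was -0.47 (95% interval -0.59 to -0.34), and Aspn then fell with limma adjusted p = 0.0013. At its brightest probe set the sign turned on 7 arrays (0.025), and without control 4 the value there was -0.08 (limma adjusted p = 0.633). Over the alternatives the limma adjusted p of Aspn ran from 0.0012 to 0.976. At Aspn probe set 10405055 control 4 read 8.51, where the other controls read 9.63 to 9.89 and the Dicer1-deficient arrays 8.64 to 9.20.

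Epyc encodes epiphycan, a dermatan sulfate proteoglycan known mainly from growth plate cartilage. It read 6.81, 6.38 and 6.50 in Dicer1-deficient RPE, against 7.10, 7.17, 7.24 and 7.12 in control RPE. Every Dicer1-deficient array was below every control, control 4 included, and Dicer1-deficient array 1 was the highest of its group. The means were 6.56 ± 0.22 (SD, n = 3) in Dicer1-deficient and 7.16 ± 0.06 (SD, n = 4) in control arrays, a log2 fold change of -0.60 (95% interval -0.84 to -0.35, limma adjusted p = 0.0134). All 8 of its probe sets had negative values, from -0.81 to -0.35, and in 5 the groups did not overlap. Among these 5, 10365998 and 10365999 read under the median of all probe sets in every array, where signals cannot be told from background. Probe set 10365994 was the only 1 of the 64 to pass limma over all probe sets on its own (7.43, 7.21 and 7.12 in Dicer1-deficient and 7.98, 8.02, 8.09 and 7.97 in control arrays, log2 fold change -0.76, adjusted p = 0.0388). Epyc did not pass limma without Dicer1-deficient array 2 (adjusted p = 0.068) or array 3 (0.0657), and over all alternatives its adjusted p ran from 8.2e-04 to 0.243, the highest being that on the median of its probe sets.

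Ogn encodes mimecan, also called osteoglycin, which carries keratan sulfate in the cornea. It read 10.65, 10.80 and 10.91 in Dicer1-deficient arrays and 11.22, 11.18, 11.13 and 10.81 in controls. Control 4 fell inside the Dicer1-deficient range and the other 3 controls lay above it. All 10 of its probe sets had negative values, from -0.79 to -0.13, and in 5 of them the groups did not overlap. The log2 fold change was -0.30 on 7 arrays (95% interval -0.56 to -0.04, limma adjusted p = 0.206). Without control 4 it was -0.39 (95% interval -0.56 to -0.22), and Ogn then fell with limma adjusted p = 0.0102. At its brightest probe set the value without control 4 was -0.18 (limma adjusted p = 0.222). Over the alternatives the limma adjusted p of Ogn ran from 0.0054 to 0.875.

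Optc encodes opticin, which coats the collagen fibrils of the vitreous and comes mainly from the ciliary epithelium. It read 5.10, 5.06 and 5.17 in Dicer1-deficient arrays and 5.28, 5.30, 5.21 and 5.05 in controls. These low levels, between the quartile and the median given above, cannot be told from background. The log2 fold change was -0.10 (95% interval -0.30 to 0.09, limma adjusted p = 0.694), and its 11 probe sets ran from -0.63 to 0.41. Without control 4 the change of the gene's mean was -0.15 (95% interval -0.29 to -0.02, limma adjusted p = 0.107).

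**Figure D2:**
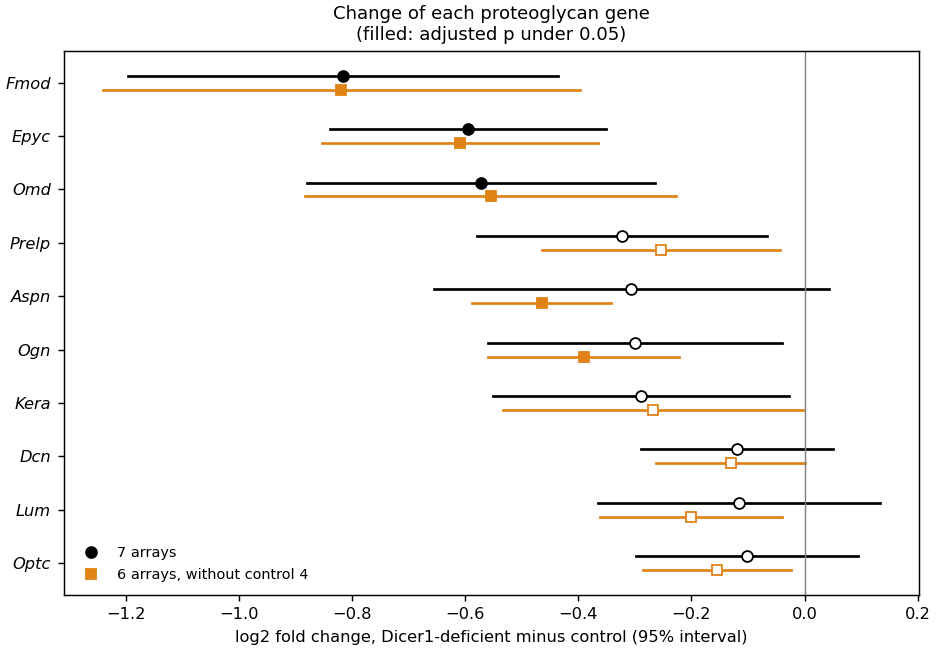
Log2 fold change of each gene, Dicer1-deficient minus control, with its 95% interval from limma, on all 7 arrays (black) and on 6 arrays without control 4 (orange), filled where adjusted p was under 0.05. Fmod, Epyc and Omd pass in both fits, and Aspn and Ogn pass only in the fit without control 4.

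Dicer1-deficient array 1 was the lowest of its group in 8 of the 10 genes, the exceptions being Epyc and Optc. Control 4 was the lowest control in 4 genes (Lum, Ogn, Aspn and Optc) and the highest in 1 (Prelp). With all 7 arrays the groups did not overlap in 5 members, Fmod, Epyc, Omd, Prelp and Dcn, and all 5 were lower, which held for 8.65% of all genes, while in 10.2% all Dicer1-deficient arrays lay above all controls. Set against controls 1 to 3 alone, all Dicer1-deficient arrays were lower in 9 members, Kera being the exception, and in 19.8% of all genes.

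Over the 64 probe sets, 60 (93.8%) had negative log2 fold changes, where 50.3% of all 53644 probe sets did. Probe sets of a gene share their transcripts and are not replicates. In 17 of the 64 all Dicer1-deficient arrays lay below all controls (26.6%, against 6.62% of all probe sets), and in none did they all lie above (7.35% of all). A single probe set was called lower by limma over all probe sets (0.406% of all probe sets were), and without control 4 there were 3, namely 10365993 and 10365994 of Epyc and 10405073 of Ogn (1.11% of all were called lower then and 1.19% higher). Ogn probe set 10405073 read 8.53, 8.50 and 8.70 in Dicer1-deficient arrays and 9.44, 9.49, 9.47 and 9.08 in controls, a log2 fold change of -0.79 on 7 arrays.

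**Figure D3:**
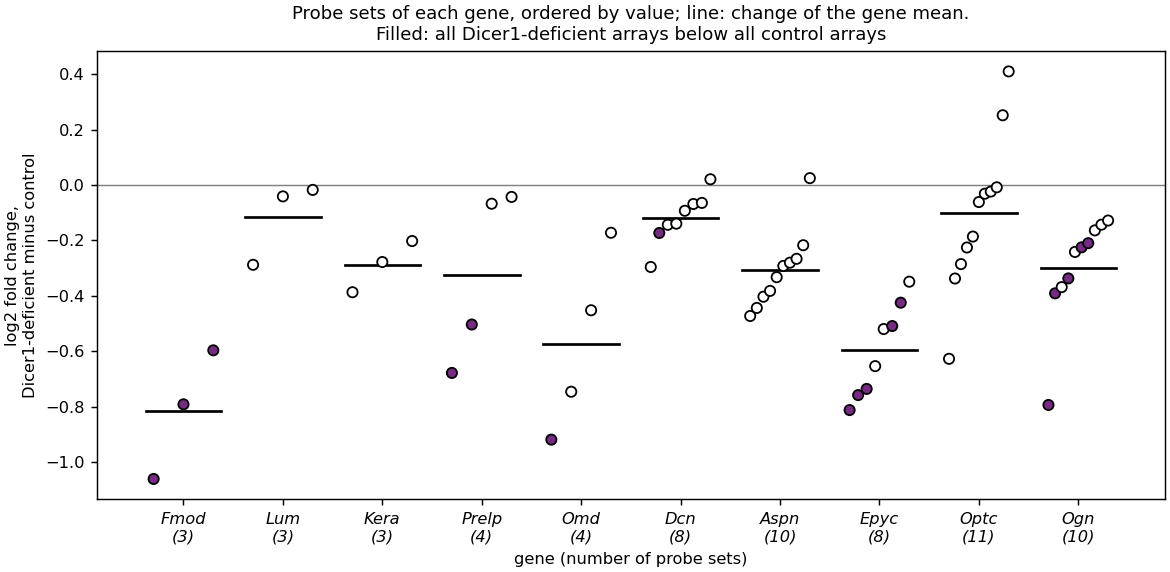
Log2 fold change (Dicer1-deficient minus control) of each of the 64 probe sets by gene, with a line at the change of the gene's mean and filled points where all Dicer1-deficient arrays lie below all controls. The probe sets of Fmod and Epyc are all negative, those of Prelp fall into a lower and a near-zero pair, and those of Optc spread on both sides of 0.

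The 10 genes lie in 3 clusters, Dcn, Lum, Kera and Epyc on chromosome 10, Optc, Prelp and Fmod on chromosome 1 and Aspn, Omd and Ogn on chromosome 13, and each cluster held 1 of the 3 genes that fell. Beside them lay members that did not pass on all 7 arrays. On chromosome 1 the log2 fold changes were -0.82 for Fmod, -0.32 for Prelp and -0.10 for Optc. On chromosome 10 they were -0.60 for Epyc, -0.29 for Kera and -0.12 for both Lum and Dcn. On chromosome 13 they were -0.57 for Omd, -0.31 for Aspn and -0.30 for Ogn. An exact permutation test compared the groups on the difference between cluster mates in each array, for 12 pairs. In 4 pairs the groups did not overlap. There Fmod lay further below control than Prelp and Optc, and Epyc further than Dcn and Lum. The permutation p, a one-sided p doubled, was 0.0571 in these 4 pairs (adjusted p = 0.171). That is the smallest that doubling over 35 splits of the arrays can give. No pair could therefore pass the threshold, and the test cannot decide whether cluster mates differ. How often the groups do not overlap in other gene pairs was not computed.

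Of the 18 protein-coding genes flanking the clusters, 3 on each side, 14 were measured and 8 had negative values, with a median log2 fold change of -0.05. On all 7 arrays only Chil1, a gene of a chitinase-like secreted protein that stands beyond Fmod, fell (6.71 in Dicer1-deficient and 8.51 in control arrays on average, log2 fold change -1.80, limma adjusted p = 8.1e-04). Without control 4, Atp2b4 (-0.38), Eea1 (-0.29), Poc1b (-0.33) and Ecm2 also passed the test, with limma adjusted p from 0.0046 to 0.0232. Btg2, an antiproliferative gene next to Fmod, had 0.36, and Atp2b1, a calcium pump gene near Epyc, had -0.03. Ecm2, itself a relative of these proteoglycans and the neighbour of Aspn, had -0.45 (limma adjusted p = 0.066, and 0.012 without control 4).

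**Figure D4:**
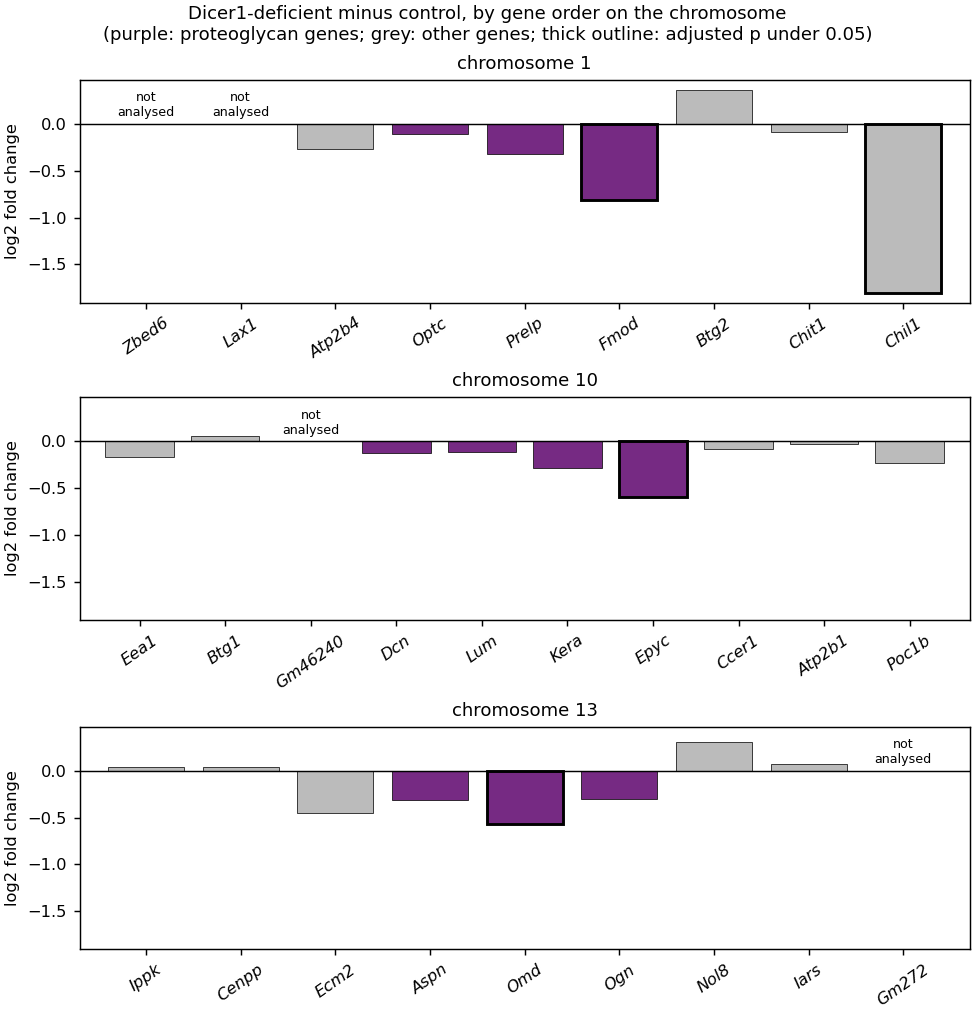
Log2 fold change (Dicer1-deficient minus control) of the proteoglycan genes (purple) and of the 3 protein-coding genes on each side (grey), in chromosomal order but not to distance, with a thick outline where adjusted p was under 0.05. Each cluster holds 1 called proteoglycan gene, and on all 7 arrays Chil1 is the only called flanking gene.

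Of the other small leucine-rich proteoglycans, 2 of 7 were measured and both had lower signals. Chad, the gene of the cartilage protein chondroadherin, read 8.50, 9.20 and 9.16 in Dicer1-deficient and 9.82, 10.06, 9.96 and 9.96 in control arrays. Its log2 fold change was -1.001 with limma adjusted p = 0.0077, beyond the value of each of the 10 members, and it passed whichever array was left out. Dicer1-deficient array 1 was again the lowest. Ecm2 encodes a matrix protein with leucine-rich repeats, and its values are those given for the neighbours of Aspn.

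Interstitial collagens, the ligands of these proteins, lay lower as a list. All 6 of the 14 listed genes that were measured had negative values and no overlap between groups, and 3 fell by the test: Col6a3 (-0.84), Col6a1 (-0.60) and Col6a2 (-0.64), which encode the 3 classical chains of collagen VI, a microfibril that binds decorin (limma adjusted p from 0.0167 to 0.0259). Col1a1, of the main collagen of sclera and cornea, had -0.36 (adjusted p = 0.062). The list's median was -0.56, and without control 4 all 6 fell. With each array left out in turn, Col6a3 passed in 6 of 7 fits, Col6a1 in 2 and Col6a2 in 1. At their brightest probe sets none of the 3 passed limma, with -0.58 for Col6a3, -0.41 for Col6a1 and -0.29 for Col6a2 (adjusted p from 0.0889 to 0.227). Of the 37 enzymes that build and sulfate the chains or sulfate tyrosine, 11 were measured and all had negative values, with a median of -0.22. Chpf, a chondroitin polymerizing factor gene, alone fell (-0.48, limma adjusted p = 0.0122), and it passed in 5 of the 7 fits that leave out an array but not at its brightest probe set (-0.55, adjusted p = 0.0575). Without control 4, 5 of the 11 enzyme genes were called lower.

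The list of fibroblast and periocular mesenchyme markers, cells that are a usual source of these proteoglycans, lay lower on average too. Its mean level was 8.36 to 8.41 in Dicer1-deficient and 8.46 to 8.74 in control arrays, with 9 of 27 genes measured. Of these, 7 had negative values and 3 fell: Fn1, the fibronectin gene (-0.44, limma adjusted p = 0.0256), Mfap4, of a microfibril protein (-0.42, 0.0389), and Twist1, a bHLH factor of mesenchyme (-0.56, 0.0424). Twist1 passed in 2 of the 7 fits that leave out an array, and Fn1 and Mfap4 in 1 each, that without control 4. At their brightest probe sets none of the 3 passed limma, with -0.22 for Fn1, -0.17 for Mfap4 and -0.57 for Twist1 (adjusted p from 0.125 to 0.467). Without control 4, 5 of the 9 were called lower. The next genes named were chosen after their values were seen. Dpt, the dermatopontin gene, had 0.38 and Foxc1, a factor of periocular mesenchyme, 0.08, neither past the test. Sparc, the gene of a collagen-binding matrix protein, read 12.14 to 12.28 in Dicer1-deficient and 12.31 to 12.35 in control arrays. Sparc did not pass either (log2 fold change -0.15, limma adjusted p = 0.385). The part of stromal cell content in the values of the proteoglycan genes was not tested.

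The RPE list was lower too, at 8.89 to 9.09 in Dicer1-deficient and 9.31 to 9.55 in control arrays, with 3 of 8 measured genes called lower (21 were listed). Those 3 were Kcnj13 (-1.18, limma adjusted p = 8.1e-04), and Rdh5 (-0.72, 0.0061) and Rdh10 (-0.54, 0.0383) of retinoid metabolism, and without control 4 there were 5. Kcnj13 passed under every alternative of the fit. Rdh5 passed whichever array was left out but not at its brightest probe set (-0.38, limma adjusted p = 0.178). Rdh10 passed in 1 of the 7 fits that leave out an array, that without control 4, and neither at its brightest probe set (-0.37, limma adjusted p = 0.159) nor on the median of its probe sets (adjusted p = 0.075). The melanocyte and Schwann cell list read 6.14 to 6.26 in Dicer1-deficient and 6.55 to 6.87 in control arrays, and 2 of its 3 measured genes (8 listed) were called lower, Pax3 (-0.91, limma adjusted p = 0.0034) and Erbb3 (-0.39, 0.017). What these lists have to do with the proteoglycan values was not tested. No gene was called in the extraocular muscle list (11 of 15 measured, median -0.02), the photoreceptor list (4 of 13, median 0.57), the lens list (7 of 13, median 1.38) or the vitreous and ciliary epithelium list (3 of 9, median -0.12). The lens list read 5.87 to 7.67 in Dicer1-deficient and 5.02 to 6.67 in control arrays, and the photoreceptor list 4.76 to 5.53 in Dicer1-deficient and 4.34 to 4.92 in control arrays. In the extraocular muscle list Dicer1-deficient array 1 had the highest mean level, 6.22, against 5.53 and 5.75 in the other 2 Dicer1-deficient arrays and 5.77 to 5.96 in controls, and it was the lowest of its group in 8 of the 10 proteoglycan genes. What that muscle signal had to do with those low values was not tested.

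The 3 tendon and cartilage genes measured (13 listed) went in both directions. Sox9, a cartilage and RPE transcription factor gene, rose by 0.33 (limma adjusted p = 0.0461) and Matn3, of the cartilage protein matrilin-3, rose by 0.72 (adjusted p = 0.001), while Hapln1, of a link protein for hyaluronan, fell by 0.54 (adjusted p = 0.0053). Matn3 and Hapln1 read 4.82 to 4.99 and 4.09 to 4.26 in Dicer1-deficient and 4.12 to 4.28 and 4.66 to 4.80 in control arrays, levels around the quartile of 4.63. At their brightest probe sets Matn3 had 0.05 (limma adjusted p = 0.968), Hapln1 -1.09 (adjusted p = 0.0133) and Sox9 0.24 (adjusted p = 0.351), so that of the 3 only Hapln1 passed there. Sox9 passed in only 1 of the 7 fits that leave out an array, that without control 4, and Matn3 and Hapln1 in all 7. Of the 16 described binding partners of decorin, 6 were measured. Tgfb2, a growth factor that decorin binds, rose by 0.51 (8.71, 8.84 and 8.95 in Dicer1-deficient and 8.42, 8.30, 8.47 and 8.10 in control arrays, limma adjusted p = 0.0265), and passed in 3 of the 7 fits that leave out an array. It did not pass at its brightest probe set (0.28, limma adjusted p = 0.272) or on the median of its probe sets (adjusted p = 0.138). Egfr, a receptor that decorin binds, had -0.22 (limma adjusted p = 0.296), and without control 4 it was called lower (-0.28, adjusted p = 0.0309).

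**Figure D5:**
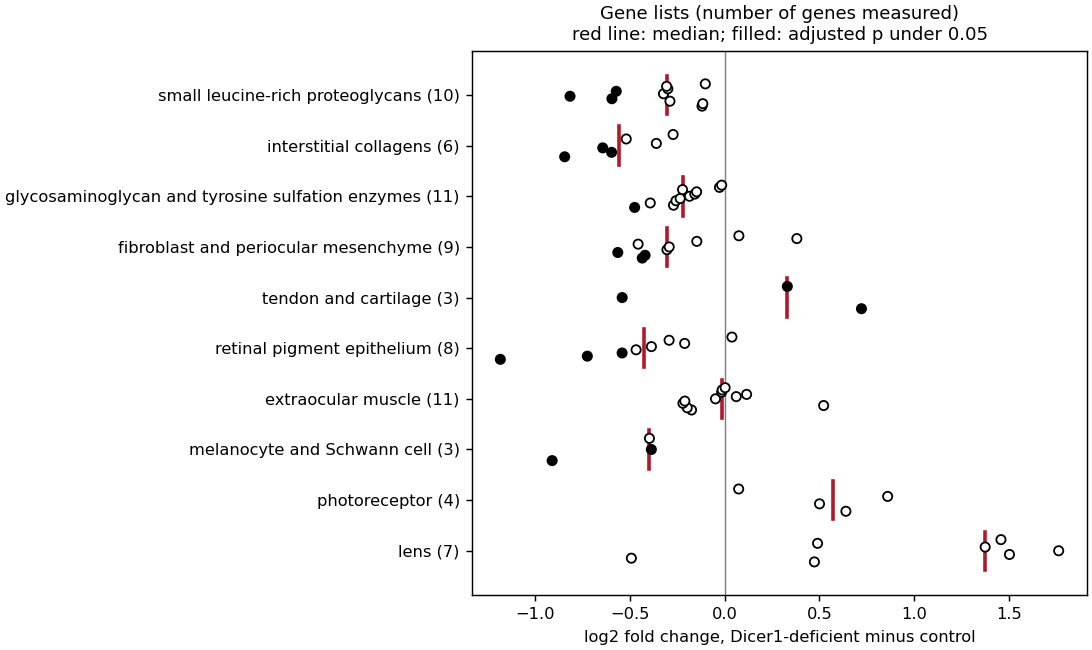
Log2 fold change (Dicer1-deficient minus control) of every measured gene in 10 lists, with the median as a red line and filled points where adjusted p was under 0.05. The proteoglycans, collagens, enzymes, mesenchyme and RPE lists lie mostly left of 0, and the photoreceptor and lens lists mostly right of it with no called gene.

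The genes with array profiles nearest to the mean profile of the 10 members, by root-mean-square distance between values centred per gene over the 7 arrays, were Lrp1 (0.0378), Rab7b (0.0412), Atox1 (0.0465), Tvp23b (0.0491) and Fkbp1b (0.0503), where the median gene stood at 0.233. Lrp1, which encodes a large endocytic receptor, read 10.09, 10.10 and 10.23 in Dicer1-deficient and 10.51, 10.56, 10.56 and 10.41 in control arrays.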

How the data were processed

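Per the labels' protocols, RNA of dissected retinal pigment epithelium (RPE) was prepared by miRNeasy, biotin-labelled and hybridised to Affymetrix arrays. The authors deposited log2 probe set signals, and the submitters' processing notes name RMA and Partek 6.6 without their roles. RMA normalizes by quantiles, which removes differences in total RNA. The medians of the deposited rows were not equal, with control 4 at 6.05 and the other arrays at 6.22 to 6.26. Quantiles set equal over a whole array need not be equal in a part of its rows. Whether that accounts for the median of control 4 was not tested. Genome build: not given in the sources used here. The same holds for filters. Array numbers are names only and pair no samples.

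The table holds 65535 rows, which is the row limit of an older spreadsheet format. Of these, 53644 probe sets carry 1 gene symbol, 877 carry several and 11014 are unnamed here. Symbols were updated through RefSeq (4321 current, 698 updated, 13 kept unmatched). The 5017 genes lie mostly on chromosomes 1, 10, 11, 12 and 13 (4918 genes), and most genes elsewhere were not analysed here. Each gene was the mean of its probe sets, fitted by limma (lmFit and eBayes, two-sided, all 7 arrays, 4.38 prior and 5 residual degrees of freedom), with Benjamini-Hochberg adjustment over all genes and a threshold of 0.05. The code was tested on simulated data. Alternatives were other probe set summaries, filters, normalizations, variance models, array weights, thresholds and each array left out. Array numbers limit the precision, and no detection calls were used.

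Members and lists were chosen with earlier results of these data known. The genes named are the 10 members, up to 4 genes per list by p, genes flanking the clusters and the 5 genes with the nearest profiles. Pmel, Sparc, Dpt and Foxc1 fall outside this rule and were chosen after their values were seen. Tools were R 4.3.3, limma 3.58.1, Python 3.11.15, pandas 2.3.3 and matplotlib 3.10.9. Sequences are those of RefSeq, build GRCm38.p6.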

Additional observations from a re-analysis of the deposited data

Results flagged for a closer look

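In 7 of the 35 genes tested, 1 control array lay far from the other 3 (its gap to the nearest control over the range of all 4 was above the critical value of Dixon's test), where chance gives about 1 in 20. The share of all genes past this rule was not computed. Control 4 also stood apart over all probe sets, so the count cannot be read as a trait of these genes. Among the members these were Lum, with control 4 at 10.97 and the other controls at 11.29 to 11.32, and Aspn, with control 4 at 10.17 and the others at 10.77 to 10.86. Control 4 was also low for the collagen genes Col6a1 (9.27, the others 9.55 to 9.59) and Col6a2 (9.21, the others 9.64 to 9.72), for B4galt7, an enzyme of the chain linker (5.42, the others 5.75 to 5.79), and for Sox9 (8.51, the others 8.65 to 8.66). For Matn3, control 1 was high at 4.28, the others reading 4.12 to 4.14.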

How the results depend on the processing

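No paired analysis was possible because the labels give no replicate numbers. Members past limma's threshold numbered 3 of 10, with 1 at the brightest probe set (Epyc) and 1 on the median of probe sets (Fmod). At the brightest without control 4 there was 1 (Epyc, added after the data were seen). With array weights there were 6, and at an adjusted p of 0.01 there were 0. An unadjusted limma p under 0.05 was found in 6 members and in 16.9% of all genes. Leaving out each array gave 1 to 5 members, most without control 4. Over all genes the count was 294. It was 117 at the brightest probe set, 260 there without control 4, 176 on the median and 981 with array weights. After quantile normalization again it was 426, and at thresholds of 0.01 and 0.1 it was 94 and 449. With arrays left out it was 121 to 853. For probe sets of the members it was 1, with 2 after quantile normalization again and 2 at or above the median level, and 0 to 3 with arrays left out. Signs turned, in genes not called, for Lum on the median (0.064) and for Aspn (0.025) and Optc (0.25) at the brightest probe set. Of the 189 values of members under the 19 alternatives, 159 kept direction and side of the threshold, uncalled genes that stayed uncalled included. The called genes held less often. Under the 17 alternatives with the threshold of 0.05, Epyc passed limma in 14, Fmod in 12 and Omd in 6. The cause of these changes was not tested. Low signals of Optc and Omd, and of some probe sets of Epyc and Prelp, limit what their values show.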
